A study of Homo sapiens with 10 samples.

Results

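GSTO1, an omega-class glutathione transferase, was followed together with 9 other enzymes of the glutathione and thioredoxin systems in spheroids of wild-type (WT) and SAMHD1-KO cells. The other 9 were the transferases GSTK1 and MGST3, the glutamate-cysteine ligase subunits GCLC and GCLM, the thioredoxin enzymes TXN, TXNRD1, PRDX1 and SRXN1, and the quinone reductase NQO1. All 10 were among the 13920 genes counted. GSTO1 was picked by its lower level in the KO clones in experiments 15 and 16. Its values in those contrasts, and in contrasts built from them, are therefore a description without a test, and its test is limited to experiments 10 and 11. The other 9 were listed for what they do.

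Glutathione, a tripeptide with a free thiol, is made by glutamate-cysteine ligase and then glutathione synthetase, and it buffers the redox state of the cell. Glutathione transferases join it to reactive compounds, while the omega class mainly carries out reductions and the release of glutathione from proteins. Thioredoxin reduces disulfides, is itself reduced by thioredoxin reductase with NADPH, and in turn serves the peroxiredoxins, which remove peroxides. Many of these genes are known targets of the transcription factor NRF2 (gene NFE2L2), which KEAP1 marks for degradation until oxidants or electrophiles modify KEAP1.

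RNA was sequenced on day 4 from spheroids of T47D, an oestrogen receptor-positive breast cancer line. The WT cells were compared with the clones A1 and A2, in which CRISPR-Cas9 was aimed at exon 5 of SAMHD1, a dNTP triphosphohydrolase. Each of experiments 10, 11, 15 and 16 gave 1 WT and 1 clone A1 library, and the last 2 also gave 1 clone A2 library. No drug or immune cell was added to these cultures according to the labels, and each KO group is 1 clone by its label, with repeat libraries that measure the clone again, so a clone and its genotype cannot be told apart. The p-values measure the spread between libraries. Libraries held 40077369 to 51311482 counts, and levels are given as CPM (counts per 1e6 counts, scaled by TMM). In bulk RNA, fewer cells of a type and less RNA per cell cannot be told apart.

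SAMHD1 was checked first. Its values in the order of experiments 10, 11, 15 and 16 were 53.9, 55.7, 49.8 and 56.4 CPM in WT and 22.5, 22.99, 6.44 and 6.15 CPM in clone A1, with 23.6 and 20.2 CPM in clone A2 of experiments 15 and 16. All KO libraries lay below all WT libraries. The log2 fold change (KO over WT) of clone A1 was -1.27 in experiments 10 and 11 but -3.08 in experiments 15 and 16, and the change of the effect was -1.81 (95% interval -2.08 to -1.54, adjusted p = 1.22e-06). Clone A1 therefore did not have a single SAMHD1 level across the experiments, and clone A2 overlapped with clone A1 of experiments 10 and 11. The label is the same in both pairs, but whether the libraries came from the same clone A1 cells was not tested. A change of the clone A1 effect between the pairs therefore compares libraries of the same label.

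The defining markers of luminal breast epithelium went largely against the T47D label. ESR1 was measured at 0.183 to 1.59 CPM, EPCAM at 0.348 to 1.78, CDH1 at 0.684 to 2.16 and KRT8 at 3.10 to 9.07, and KRT19 was not among the counted genes. KRT18 reached 36.3 to 60.3 CPM, and GATA3, PGR and FOXA1 lay between 14.1 and 26.8 CPM. The 8 counted luminal markers summed to 102 to 130 CPM, with 113 to 130 in WT and 102 to 118 in the KO libraries. Of 5 mesenchymal markers 3 were counted and summed to 1400 to 1730 CPM in WT and 1420 to 1550 in the KO libraries, mostly VIM at 1175 to 1518 CPM. Leukocyte markers (3 of 5 counted) summed to at most 3.28 CPM and endothelial ones (1 of 3) to at most 1.69, and 0 of 3 basal markers were counted. The results hold for these libraries, whatever the cells are called. The part of these markers in the results was not tested.

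The promoters of NRF2 targets carry the antioxidant response element, so its core letters TGACNNNGC were searched on both strands in the RefSeq promoter windows (GRCh38.p14, 250 bases before to 50 after the start site). Of 35116 windows, 13.3% held a match and 1.13% held at least 2. Windows were found for 9 members, the exception being PRDX1, and 3 of the 9 held a match. Every member window with a match is printed here, so that GSTO1 can be set beside 2 enzymes long known as NRF2 targets. Each runs 5′ to 3′ on the strand of the gene, with the core in capitals.
GSTO1 (chr10:104254642-104254941, plus strand): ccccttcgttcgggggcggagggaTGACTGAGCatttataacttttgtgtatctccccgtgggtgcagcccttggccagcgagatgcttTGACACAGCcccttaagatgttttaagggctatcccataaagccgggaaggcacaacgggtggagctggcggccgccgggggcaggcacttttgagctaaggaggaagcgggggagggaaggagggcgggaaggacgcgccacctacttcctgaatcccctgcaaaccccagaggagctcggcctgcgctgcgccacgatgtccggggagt
GCLM (chr1:93909381-93909680, minus strand): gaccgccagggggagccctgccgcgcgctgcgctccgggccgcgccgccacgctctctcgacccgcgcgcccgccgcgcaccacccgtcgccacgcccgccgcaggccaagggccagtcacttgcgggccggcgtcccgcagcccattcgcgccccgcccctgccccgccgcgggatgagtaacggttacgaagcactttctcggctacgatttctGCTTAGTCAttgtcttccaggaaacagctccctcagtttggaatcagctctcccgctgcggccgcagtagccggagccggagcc
TXNRD1 (chr12:104215529-104215828, plus strand): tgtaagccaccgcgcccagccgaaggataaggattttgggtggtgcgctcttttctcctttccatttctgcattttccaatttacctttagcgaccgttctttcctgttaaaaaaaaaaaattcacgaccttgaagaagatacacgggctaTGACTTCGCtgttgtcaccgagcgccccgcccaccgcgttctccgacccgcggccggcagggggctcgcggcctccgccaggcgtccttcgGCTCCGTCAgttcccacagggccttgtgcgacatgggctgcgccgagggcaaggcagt
TXNRD1 (chr12:104286782-104287081, plus strand): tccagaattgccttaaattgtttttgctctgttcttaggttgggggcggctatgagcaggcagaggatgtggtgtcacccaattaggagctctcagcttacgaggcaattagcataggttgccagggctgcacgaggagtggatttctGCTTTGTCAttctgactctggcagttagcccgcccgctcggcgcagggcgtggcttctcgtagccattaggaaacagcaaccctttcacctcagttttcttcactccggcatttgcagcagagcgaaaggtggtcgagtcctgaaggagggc
In GSTO1 the matches begin 226 and 161 bases before the start site, on the strand of the gene. The GCLM match begins 34 bases before the start and lies on the opposite strand. TXNRD1 has 2 matches in its first window, which begin 99 and 8 bases before the start, and 1 in its second, which begins 102 bases before. The windows of GSTK1, MGST3, GCLC, TXN, SRXN1 and NQO1 held none, and bases outside the windows were not searched. A match describes letters only.

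The members spanned a wide range of abundance. Compared per length, as mean CPM per kb of merged GENCODE exons over the 4 WT libraries, PRDX1 stood at 271 (range 244 to 298) and TXN at 263 (range 226 to 302), and these 2 overlapped. GSTO1 followed at 83.8 (range 77.6 to 90.8), apart from its neighbours in the order. TXNRD1 reached 16.6 (15.9 to 17.1), SRXN1 11.4 (10.95 to 11.6) and GSTK1 10.2 (8.66 to 11.4) CPM per kb, and the last 2 overlapped. GCLM at 6.29 (5.57 to 6.77), MGST3 at 5.44 (5.30 to 5.53) and GCLC at 3.51 (3.43 to 3.68) were lower, and NQO1 was lowest at 0.819 (0.769 to 0.874) CPM per kb. NQO1 had only 86 to 138 counts per library, so its fold changes are the least precise of the 10. The merged exons of MGST3 and GCLC are long (8052 and 8618 bases) and include isoforms that may not be used here.

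**Figure D1:**
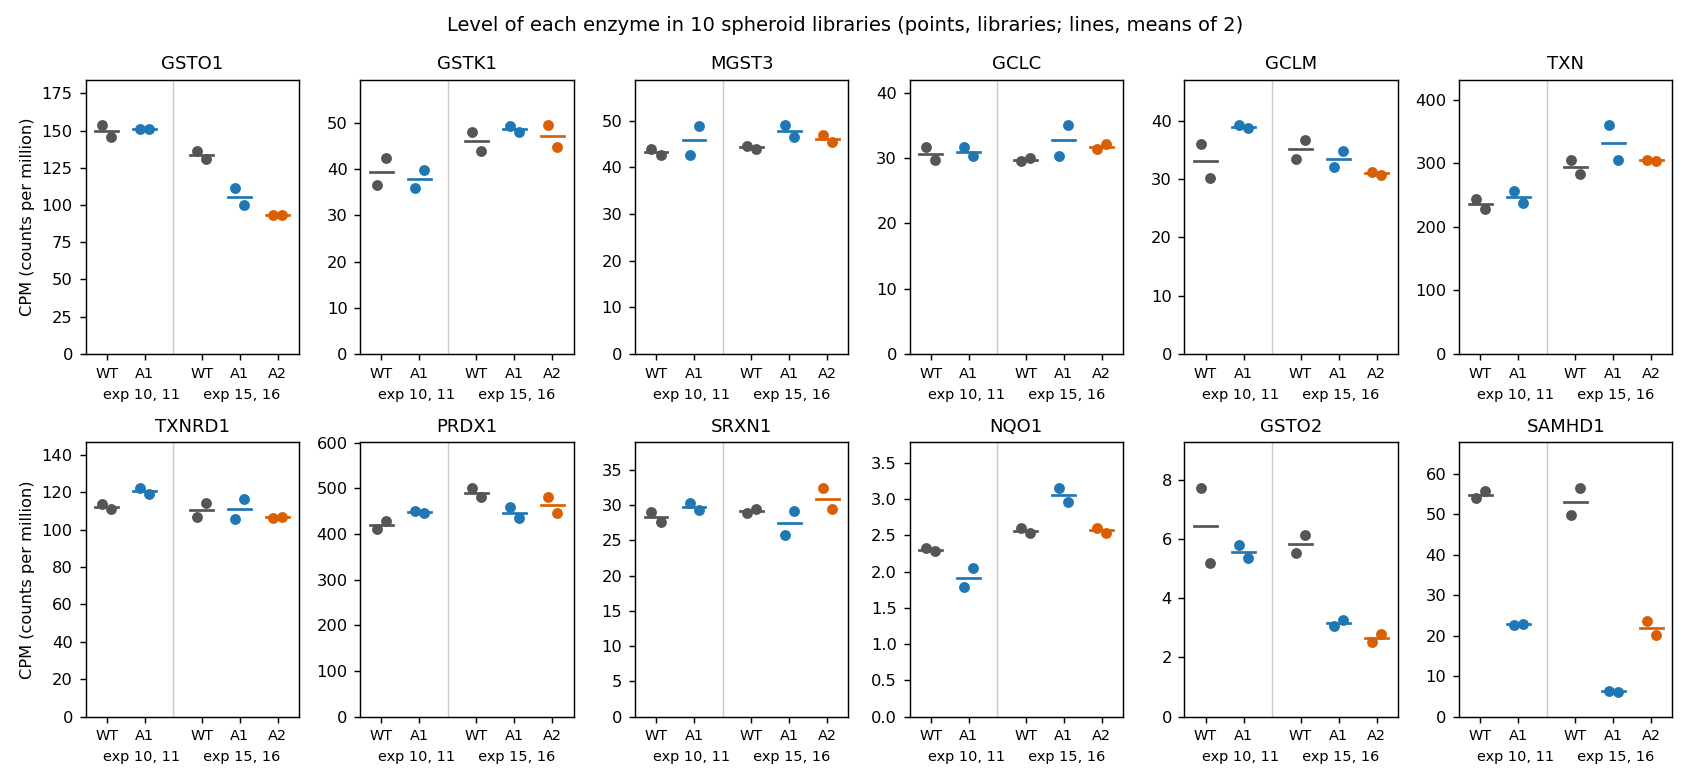
Level in CPM (y axis, from 0) of the 10 enzymes, of GSTO2 and of SAMHD1 in each library, by group and experiment pair; points are libraries and lines are means of 2. GSTO1 sits at 93.3 to 111 CPM in the KO libraries of experiments 15 and 16 and at 131 to 154 CPM in the other 6, while most other enzymes stay within a narrow range.

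The plot of levels by library shows GSTO1 lower in all 4 KO libraries than in WT of experiments 15 and 16, the pattern by which it was picked. In experiments 10, 11, 15 and 16 its level was 154, 146, 136 and 131 CPM in WT and 151, 151, 111 and 99.9 CPM in clone A1, and in experiments 15 and 16 it was 93.3 and 93.7 CPM in clone A2. The means were 134 ± 3.46 CPM in WT, 106 ± 7.99 CPM in clone A1 and 93.5 ± 0.288 CPM in clone A2 (SD, n = 2) in experiments 15 and 16, against 149.6 ± 5.38 CPM in WT and 151 ± 0.187 CPM in clone A1 in experiments 10 and 11. In order, the 2 groups of experiments 10 and 11 overlapped at the top, WT of experiments 15 and 16 came next, and clones A1 and A2 of those experiments followed without overlap. The log2 fold change in experiments 15 and 16 was -0.34 (SE 0.065) for clone A1 and -0.52 (SE 0.065) for clone A2, 2 values that share the same WT libraries. Among all 13920 genes, 13.2% passed the test (adjusted p under 0.05, edgeR) for clone A1 and 21.2% for clone A2, and nothing is read from GSTO1 against these shares.

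Experiments 10 and 11, which were not used to pick GSTO1, gave another value. Clone A1 there differed from WT by 0.013 (95% interval -0.16 to 0.19, adjusted p = 0.970) on the log2 scale. Leaving out 1 library at a time moved the difference between -0.023 and 0.053. The shift of the clone A1 effect between the experiment pairs was -0.35 (SE 0.10), given without a test. WT itself differed by -0.16 (SE 0.073) from the earlier to the later pair, also without a test. Only 0.0862% of all genes passed in the comparison of experiments 10 and 11 (12 genes, with 963 at an unadjusted p under 0.05 and 23 by DESeq2). The count became 3144 without WT of experiment 10, and 19 to 76 without each of the other 3. The fits without WT of experiment 10 or 11 each have 1 WT library and take their spread from the clone A1 libraries alone. These are the closest of all pairs (chi-square per degree of freedom 6.74, against 25.1 for the WT pair of experiments 10 and 11). The p-values of these fits therefore say little of the spread in WT. On the same measure WT of experiment 11 stood apart, at 22.5 to 33.7 from the other 3 libraries. WT of experiment 10 was at 8.51 and 10.1 from the clone A1 libraries. Why the counts differ was not tested.

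Between the clones, GSTO1 was -0.18 (SE 0.065) in clone A2 against clone A1, given without a test because these are the libraries on which GSTO1 was picked. Both clone A2 libraries lay below both clone A1 libraries. Without clone A1 of experiment 15 the difference was -0.097, and without clone A1 of experiment 16 it was -0.26.

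GSTO2, the adjacent omega-class gene on chromosome 10, was far less abundant, and it fell in both clones of experiments 15 and 16. WT libraries gave 7.72, 5.18, 5.52 and 6.12 CPM for GSTO2 in experiments 10, 11, 15 and 16, clone A1 gave 5.78, 5.37, 3.06 and 3.26 CPM, and clone A2 gave 2.53 and 2.79 CPM in experiments 15 and 16. All 4 KO libraries of experiments 15 and 16 lay below every other library. Against WT it fell by 0.88 (adjusted p = 0.00175) in clone A1 and by 1.13 (adjusted p = 1.22e-04) in clone A2 on the log2 scale in experiments 15 and 16. In experiments 10 and 11 the difference was -0.21 (95% interval -0.60 to 0.19, adjusted p = 0.794), and WT of experiment 10 stood above the rest. The change of the clone A1 effect between the experiment pairs was -0.67 (adjusted p = 0.211), which passed with a replicate block (the experiment number as a term, so that libraries of the same experiment are compared) at -0.69 (adjusted p = 0.0491) and without WT of experiment 10 at -0.99 (adjusted p = 0.0137), but was -0.41 (adjusted p = 0.384) without WT of experiment 11. In that comparison 1.91% of all genes passed, and 7.77% with the block.

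Other genes around GSTO1 moved the same way, as the plot of fold change against distance shows. GSTO1 lies on chromosome 10 from 104254173 to 104267455 (GRCh38), and 16 other counted genes lie within 1 Mb of it, GSTO2 among them. Of these 16, 8 were lower and 0 higher in clone A1 of experiments 15 and 16 (median log2 fold change -0.26), and 11 were lower and 0 higher in clone A2 (median -0.36). Over all genes, 6.74% were called lower in clone A1 and 11.4% in clone A2. Genes called lower in both clones included PCGF6 (-0.46 in clone A1 and -0.54 in clone A2), TAF5 (-0.46 and -0.47), PDCD11 (-0.61 and -0.36) and SH3PXD2A (-0.47 and -0.45), chosen here after their values were seen. GSTO1, at -0.34 and -0.52, lay within the range of its neighbours: 6 of the 16 were below it in clone A1 and 3 in clone A2. In experiments 10 and 11 the median of the 16 was -0.072 and 0 were called, which became 2 lower with the replicate block, beside 1.65% of all genes called. The change of the clone A1 effect between the pairs had 0 of the 16 lower, and 6 with the block. Of all genes 1.91% were called there, and 7.77% with the block.

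**Figure D2:**
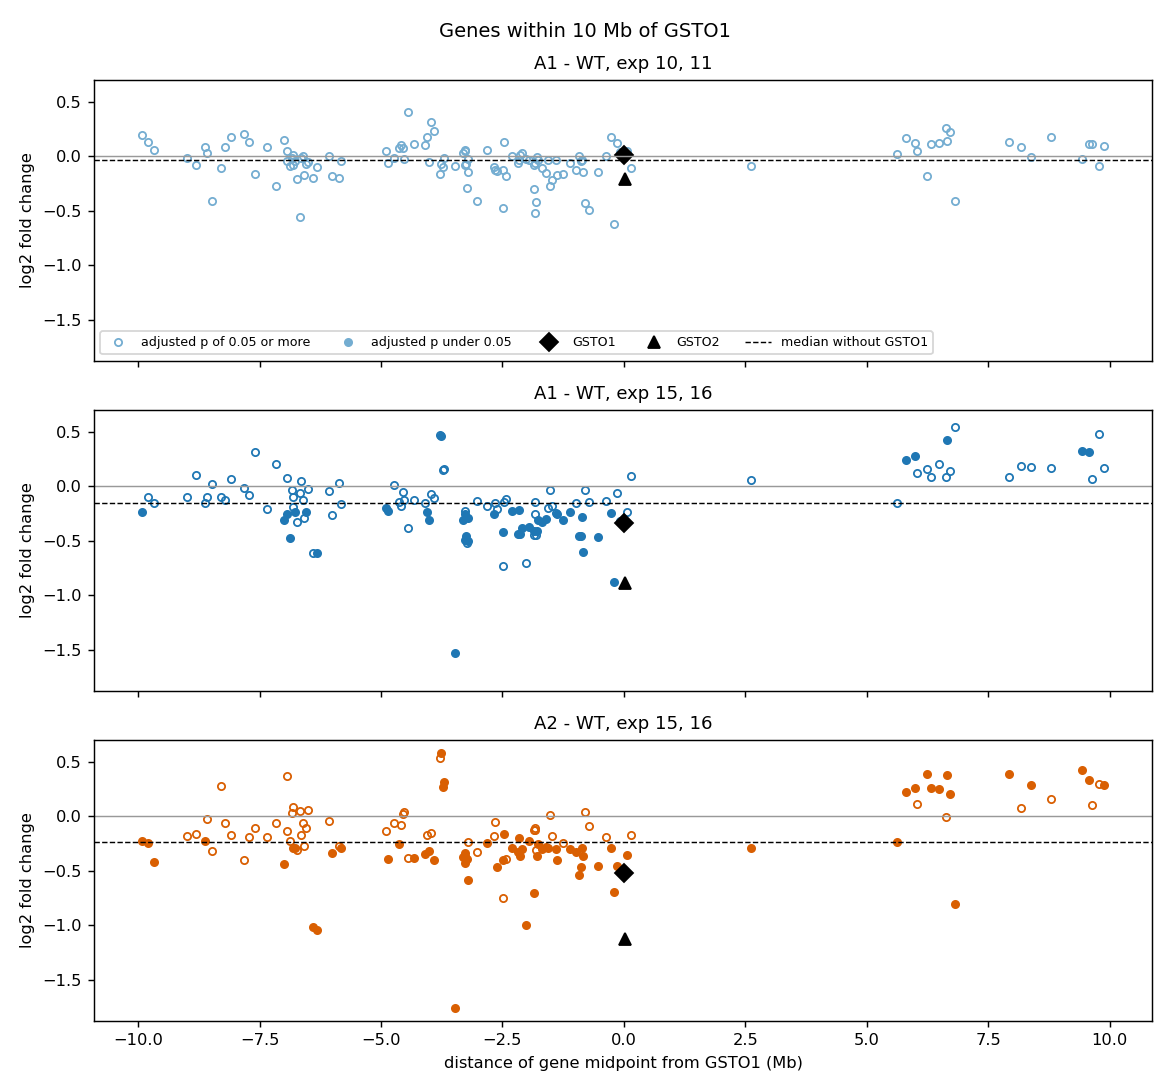
Log2 fold change of clone A1 or A2 over WT (y axis) of genes within 10 Mb of GSTO1, against the distance of the gene midpoint in Mb (x axis); filled points have an adjusted p under 0.05 and the dashed line is the median of the other 133 genes. The median is -0.034 for clone A1 in experiments 10 and 11, -0.15 for clone A1 and -0.23 for clone A2 in experiments 15 and 16, and GSTO1 lies below the last 2 lines.

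The shift was not the same along the chromosome. From 5 Mb below GSTO1 up to the gene, 34 of 72 genes were lower and 1 higher in clone A1 (median -0.25), and 42 were lower and 3 higher in clone A2 (median -0.30). From 5 to 10 Mb beyond it, 0 of 20 were lower and 5 higher in clone A1 (median 0.17), and 2 were lower and 12 higher in clone A2 (median 0.26). The same windows differed in WT between the experiment pairs, with medians of -0.23 (27 of 72 lower and 0 higher) and 0.23 (0 of 20 lower and 8 higher). Of all genes 6.86% were lower and 7.76% higher there, and 6.44% and 9.75% were higher in clones A1 and A2. These windows were set after the values were seen. Once the median of the 133 genes within 10 Mb was subtracted, GSTO1 stood at -0.19 in clone A1 and -0.29 in clone A2, and at 0.0091 in WT between the experiment pairs. That median joins windows of opposite shift. The medians within 1 Mb of GSTO1 were lower, at -0.26 in clone A1, -0.36 in clone A2 and -0.23 in WT. The part of the region in the level of GSTO1 was not tested further.

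None of the other 9 enzymes passed the test in either clone in experiments 15 and 16. This was 0 of 9 in clone A1, beside 13.2% of all genes, and 0 of 9 in clone A2, beside 21.2%, and 9 genes are too few to set apart from those shares. In experiments 10 and 11, 0 of 10 passed, and between the clones 0 of 9, beside 6.16% of all genes (14.0% with the block). The plot of fold changes gives all intervals. With the replicate block 3 enzymes passed in experiments 15 and 16, where 23.3% of all genes passed for clone A1 and 32.4% for clone A2. These were TXN and PRDX1 in clone A1 and GCLM in clone A2, described below, and in experiments 10 and 11 the block gave 0 of 10 beside 1.65% of all genes.

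**Figure D3:**
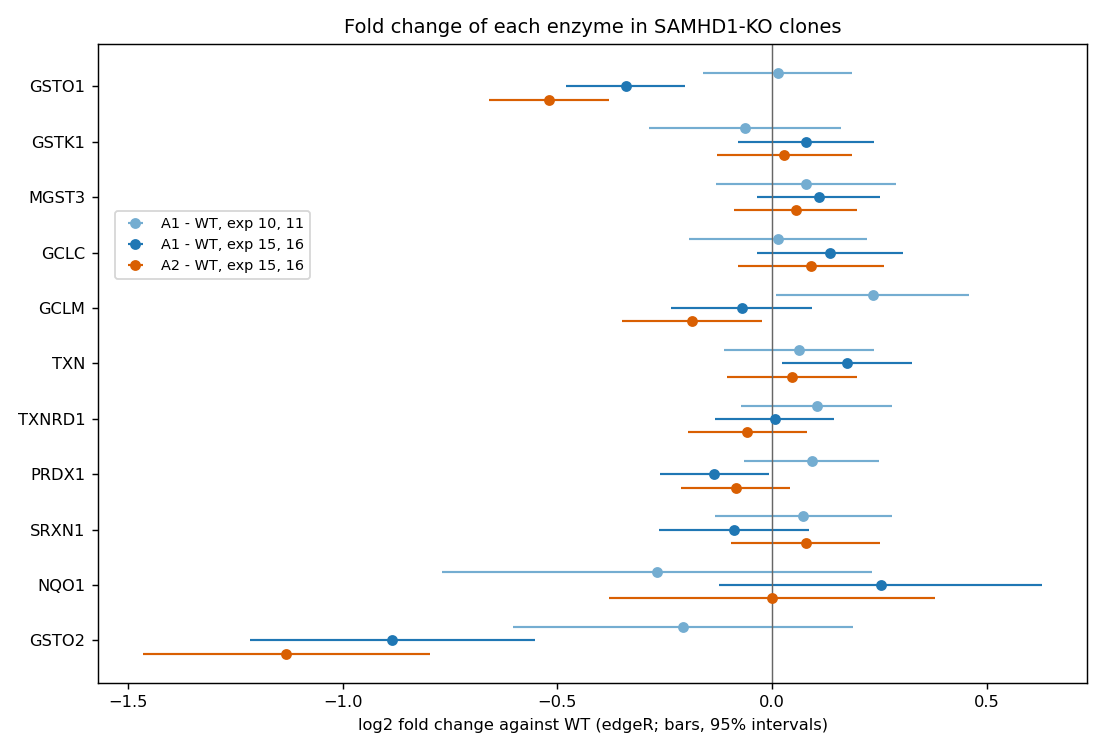
Log2 fold change against WT (x axis) of the 10 enzymes and GSTO2, with 95% intervals from edgeR, for clone A1 in experiments 10 and 11 and for clones A1 and A2 in experiments 15 and 16. GSTO1, picked on the lower 2 values of its row, is at -0.34 and -0.52, GSTO2 at -0.88 and -1.13, and the point estimates of the other 9 enzymes lie between -0.27 and 0.25.

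GSTK1, a mitochondrial and peroxisomal transferase, passed in none of the 6 comparisons. Its values in the order of experiments 10, 11, 15 and 16 were 36.5, 42.5, 48.1 and 44.1 CPM in WT and 35.9, 39.8, 49.4 and 48.01 CPM in clone A1, with 49.5 and 44.8 CPM in clone A2 of experiments 15 and 16. The lowest 4 values were all from experiments 10 and 11, and the clones overlapped with WT in experiments 15 and 16. Its fold change was 0.080 (95% interval -0.078 to 0.24, adjusted p = 0.546) in clone A1 and 0.029 (95% interval -0.13 to 0.19, adjusted p = 0.826) in clone A2. WT differed by 0.22 between the experiment pairs (adjusted p = 0.113), by 0.33 (adjusted p = 0.0196) without WT of experiment 11 and by 0.12 (adjusted p = 0.355) without WT of experiment 10. Genes within 10 Mb of GSTK1 had medians of 0.16 in clone A1, 0.21 in clone A2 and 0.20 in WT between the pairs.

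MGST3, a membrane-bound transferase with peroxidase activity, varied little between libraries. MGST3 was measured at 43.99, 42.6, 44.5 and 44.01 CPM in WT of experiments 10, 11, 15 and 16, at 42.6, 48.9, 48.96 and 46.6 CPM in clone A1 of the same experiments, and at 46.9 and 45.3 CPM in clone A2 of experiments 15 and 16. The highest level was 1.15 times the lowest over the 10 libraries. In experiments 15 and 16 both KO clones lay above WT, by 0.11 (95% interval -0.035 to 0.25, adjusted p = 0.333) in clone A1 and 0.056 (95% interval -0.087 to 0.20, adjusted p = 0.610) in clone A2.

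GCLC and GCLM are the catalytic and the modifier subunit of glutamate-cysteine ligase, the first step of glutathione synthesis. WT libraries gave 31.7, 29.7, 29.5 and 29.98 CPM for GCLC in experiments 10, 11, 15 and 16, clone A1 gave 31.7, 30.3, 30.4 and 35.02 CPM, and clone A2 gave 31.4 and 32.1 CPM in experiments 15 and 16. GCLC ran from 29.5 to 35.0 CPM, its highest value was clone A1 of experiment 16, and all 4 KO libraries of experiments 15 and 16 lay above both WT libraries. Its fold change was 0.14 (95% interval -0.035 to 0.31, adjusted p = 0.306) in clone A1 and 0.091 (95% interval -0.079 to 0.26, adjusted p = 0.464) in clone A2. GCLM was measured at 36.1, 30.2, 33.5 and 36.7 CPM in WT of experiments 10, 11, 15 and 16, at 39.2, 38.7, 32.1 and 34.9 CPM in clone A1 of the same experiments, and at 31.2 and 30.8 CPM in clone A2 of experiments 15 and 16. For GCLM both clone A2 libraries lay below both WT libraries of the same experiments, while clone A1 lay above WT in experiments 10 and 11.

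The GCLM difference in clone A2 was -0.19 (95% interval -0.35 to -0.022, adjusted p = 0.1000), with the replicate block it was -0.18 and passed (adjusted p = 0.0295), and without WT of experiment 16 it was -0.12 (adjusted p = 0.487). In clone A1 it was -0.071 (95% interval -0.23 to 0.092, adjusted p = 0.617) in experiments 15 and 16 and 0.23 (95% interval 0.010 to 0.46, adjusted p = 0.714) in experiments 10 and 11. Without WT of experiment 10 the last value became 0.37, and without WT of experiment 11 it was 0.11. The change of the effect between the pairs was -0.30 (adjusted p = 0.313), and in the same order -0.44 and -0.18 without these libraries. Each of these left-out fits rests on 1 WT library for experiments 10 and 11. The 2 subunits differed in sign in both clones of experiments 15 and 16, but neither difference passed and the difference between the subunits was not tested.

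TXN, thioredoxin itself, was higher in experiments 15 and 16 than in experiments 10 and 11, in WT and in clone A1. In experiments 10, 11, 15 and 16 its level was 244, 229, 305 and 284 CPM in WT and 257, 237, 359 and 305 CPM in clone A1, and in experiments 15 and 16 it was 305 and 304 CPM in clone A2. All 6 libraries of experiments 15 and 16 lay above all 4 of experiments 10 and 11, and clone A1 of experiment 15 stood apart at the top. In WT alone TXN rose by 0.32 between the experiment pairs (SE 0.082, adjusted p = 0.0169), a call lost without WT of experiment 15 (0.27, adjusted p = 0.148) or 16 (0.37, adjusted p = 0.0531). In clone A1 against WT the difference was 0.17 (95% interval 0.023 to 0.33, adjusted p = 0.126) in experiments 15 and 16. It passed with the replicate block at 0.17 (adjusted p = 0.0167) and without clone A1 of experiment 16 at 0.29 (adjusted p = 0.0123), but was 0.048 (adjusted p = 0.722) without clone A1 of experiment 15. Clone A2 differed by 0.047 (95% interval -0.10 to 0.20, adjusted p = 0.695) from WT, and by -0.13 from clone A1 (adjusted p = 0.343), which passed without clone A1 of experiment 16 at -0.24 (adjusted p = 0.0405) and was -0.0028 (adjusted p = 0.991) without clone A1 of experiment 15.

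TXNRD1, the cytosolic selenoenzyme that reduces thioredoxin, passed in none of the 6 comparisons. Its values in the order of experiments 10, 11, 15 and 16 were 114, 111, 107 and 115 CPM in WT and 122, 119, 106 and 117 CPM in clone A1, with 106 and 107 CPM in clone A2 of experiments 15 and 16. The range was 106 to 122 CPM, with the top values in clone A1 of experiments 10 and 11. Its fold change was 0.0066 (95% interval -0.13 to 0.15, adjusted p = 0.967) in clone A1 and -0.057 (95% interval -0.20 to 0.082, adjusted p = 0.590) in clone A2 of experiments 15 and 16, and 0.10 (95% interval -0.073 to 0.28, adjusted p = 0.785) in clone A1 of experiments 10 and 11. In WT it differed by -0.022 between the pairs (adjusted p = 0.875).

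PRDX1, an abundant peroxiredoxin that thioredoxin reduces, rose in WT between the experiment pairs by 0.22 (SE 0.065, adjusted p = 0.0293). WT libraries gave 411, 429, 501 and 480.4 CPM for PRDX1 in experiments 10, 11, 15 and 16, clone A1 gave 449.8, 445, 459 and 435 CPM, and clone A2 gave 481 and 446 CPM in experiments 15 and 16. WT of experiments 15 and 16 lay above WT of experiments 10 and 11, while clone A1 overlapped between the pairs. The WT call was lost without WT of experiment 15 (0.20, adjusted p = 0.22) or 16 (0.25, adjusted p = 0.122). PRDX1 and TXN were the 2 of 9 enzymes that passed between WT of the pairs, beside 14.6% of all genes. In clone A1 of experiments 15 and 16 PRDX1 differed from WT by -0.13 (95% interval -0.26 to -0.0079, adjusted p = 0.159), which passed with the replicate block (adjusted p = 0.0155). The change of its clone A1 effect between the pairs was -0.22 (95% interval -0.42 to -0.030, adjusted p = 0.265), and clone A2 differed from WT by -0.084 (95% interval -0.21 to 0.042, adjusted p = 0.347).

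SRXN1 encodes sulfiredoxin, which repairs over-oxidised peroxiredoxins. SRXN1 was measured at 29, 27.7, 28.96 and 29.4 CPM in WT of experiments 10, 11, 15 and 16, at 30.3, 29.3, 25.8 and 29.1 CPM in clone A1 of the same experiments, and at 32.4 and 29.4 CPM in clone A2 of experiments 15 and 16. The lowest value was clone A1 and the highest clone A2, both of experiment 15, and WT of experiments 15 and 16 overlapped with both clones. Its fold change was -0.089 (95% interval -0.26 to 0.087, adjusted p = 0.548) in clone A1 and 0.078 (95% interval -0.095 to 0.25, adjusted p = 0.547) in clone A2.

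NQO1, a quinone reductase much used as a readout of NRF2, was scarcely present. In experiments 10, 11, 15 and 16 its level was 2.32, 2.29, 2.60 and 2.53 CPM in WT and 1.78, 2.05, 3.15 and 2.96 CPM in clone A1, and in experiments 15 and 16 it was 2.60 and 2.54 CPM in clone A2. In experiments 15 and 16 clone A1 lay above WT and clone A2 overlapped with it, while in experiments 10 and 11 clone A1 lay below WT. The fold changes were 0.25 (95% interval -0.12 to 0.63, adjusted p = 0.401) and -0.27 (95% interval -0.77 to 0.23, adjusted p = 0.793) for clone A1 in the 2 pairs, and for clone A2 the value was 0.00014 (95% interval -0.38 to 0.38, adjusted p = 1). The change of the clone A1 effect, 0.52 (95% interval -0.072 to 1.12, adjusted p = 0.420), was the widest interval of the 10 members.

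The regulators were measured next. WT libraries gave 50.4, 46.02, 45.1 and 45.7 CPM for NFE2L2 in experiments 10, 11, 15 and 16, clone A1 gave 52.97, 50.7, 48.6 and 46.2 CPM, and clone A2 gave 43.4 and 50.4 CPM in experiments 15 and 16. NFE2L2 passed in none of the 6 comparisons, with 0.060 (95% interval -0.10 to 0.22, adjusted p = 0.680) in clone A1 and 0.044 (95% interval -0.12 to 0.21, adjusted p = 0.739) in clone A2 of experiments 15 and 16. KEAP1 was measured at 74.7, 95.99, 71.3 and 67.2 CPM in WT of experiments 10, 11, 15 and 16, at 74.99, 79.9, 56.8 and 58.95 CPM in clone A1 of the same experiments, and at 62.03 and 62.4 CPM in clone A2 of experiments 15 and 16. KEAP1 fell in clone A1 of experiments 15 and 16 by 0.26 on the log2 scale (SE 0.064, adjusted p = 0.0148), beside a median of -0.19 for genes within 10 Mb. That call was lost without clone A1 of experiment 15 (-0.24, adjusted p = 0.0817) or WT of experiment 15 (-0.21, adjusted p = 0.155), and with 10 libraries in 1 fit (-0.26, adjusted p = 0.105). In clone A2 the difference was -0.16 (95% interval -0.29 to -0.021, adjusted p = 0.0938), and it passed with the replicate block (adjusted p = 0.0220). WT of experiment 11 was the highest KEAP1 value. Between WT of the pairs KEAP1 differed by -0.30, lower in experiments 15 and 16 (adjusted p = 0.0463), and by -0.11 (adjusted p = 0.393) without that library. It did not pass without WT of experiment 15 (-0.35, adjusted p = 0.108) or 16 (-0.26, adjusted p = 0.259). The KEAP1 difference of clone A1 in experiments 10 and 11 was -0.14 (adjusted p = 0.784). It became -0.31 without WT of experiment 10 and 0.053 without WT of experiment 11, each in a fit of 1 WT library.

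Around the 10 members, 95 counted genes of glutathione, thioredoxin and NRF2 pathways were listed, the members among them. In clone A1 of experiments 15 and 16, 2 of the 95 were higher and 15 lower (17.9%, beside 13.2% of all genes), and in clone A2 8 were higher and 22 lower (31.6%, beside 21.2%). Their median log2 fold change was 0.018 in clone A1 and -0.035 in clone A2, against 0.0026 and 0.0043 over all genes. The 2 comparisons share their WT libraries, and the lower genes of both include GSTO1, which was picked on these comparisons. With the replicate block the counts were 11 higher and 19 lower in clone A1 and 13 higher and 29 lower in clone A2. Without clone A1 of experiment 15 the lower genes of clone A1 became 9, and without clone A1 of experiment 16 its higher genes became 4. Those higher in clone A2 became 5 without clone A2 of experiment 15 and 4 without WT of experiment 16. In experiments 10 and 11, 0 of 95 passed in clone A1, and 4 lower with the replicate block (GSTP1, GPX1, MAFG and BLVRB). Without WT of experiment 10, in the fit with 1 WT library, 11 were higher and 15 lower, where 22.6% of all genes passed.

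Of 14 counted glutathione transferases, 4 were lower and 0 higher in clone A1 (GSTM2, MGST1, GSTO2 and GSTO1), and 7 were lower and 0 higher in clone A2, which added GSTT2B, GSTA4 and GSTP1. These were 28.6% and 50% of the list, beside 6.74% and 11.4% of all genes called lower. Apart from the picked GSTO1 these were 3 and 6 of 13. The median over the 14 was -0.043 in clone A1 and -0.34 in clone A2. MGST1, a microsomal transferase, showed the clearest change of the list. Its values in the order of experiments 10, 11, 15 and 16 were 15.6, 13.7, 12.1 and 13.9 CPM in WT and 15.98, 13.9, 4.98 and 5.14 CPM in clone A1, with 4.06 and 3.57 CPM in clone A2 of experiments 15 and 16. Its 4 KO libraries of experiments 15 and 16 lay at or below 5.14 CPM and the other 6 at or above 12.1 CPM. It fell by 1.36 (SE 0.13, adjusted p = 8.90e-06) in clone A1 and by 1.78 (SE 0.13, adjusted p = 3.98e-07) in clone A2. In experiments 10 and 11 the difference was 0.033 (95% interval -0.23 to 0.29, adjusted p = 0.950), and the change of the clone A1 effect was -1.39 (95% interval -1.76 to -1.03, adjusted p = 3.16e-04).

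GSTM2 had 5 to 34 counts per library and near-identical relatives, so its value is uncertain. It fell by 1.51 (adjusted p = 0.0229) in clone A1 and by 1.70 (adjusted p = 0.00752) in clone A2 of experiments 15 and 16, from 0.857 and 0.663 CPM in WT to 0.274 and 0.252 in clone A1 and 0.292 and 0.176 in clone A2. The clone A1 call was lost with DESeq2 (adjusted p = 0.0924), without either clone A1 library (adjusted p = 0.0767 and 0.0883) and without WT of experiment 15 (adjusted p = 0.136). The clone A2 call was lost without clone A2 of experiment 16 (adjusted p = 0.103) or WT of experiment 15 (adjusted p = 0.0518). In experiments 10 and 11 the clone A1 libraries, at 0.104 and 0.109 CPM, were also below WT, at 0.499 and 0.326 CPM (log2 fold change -1.93 (95% interval -3.12 to -0.73, adjusted p = 0.501)).

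**Figure D4:**
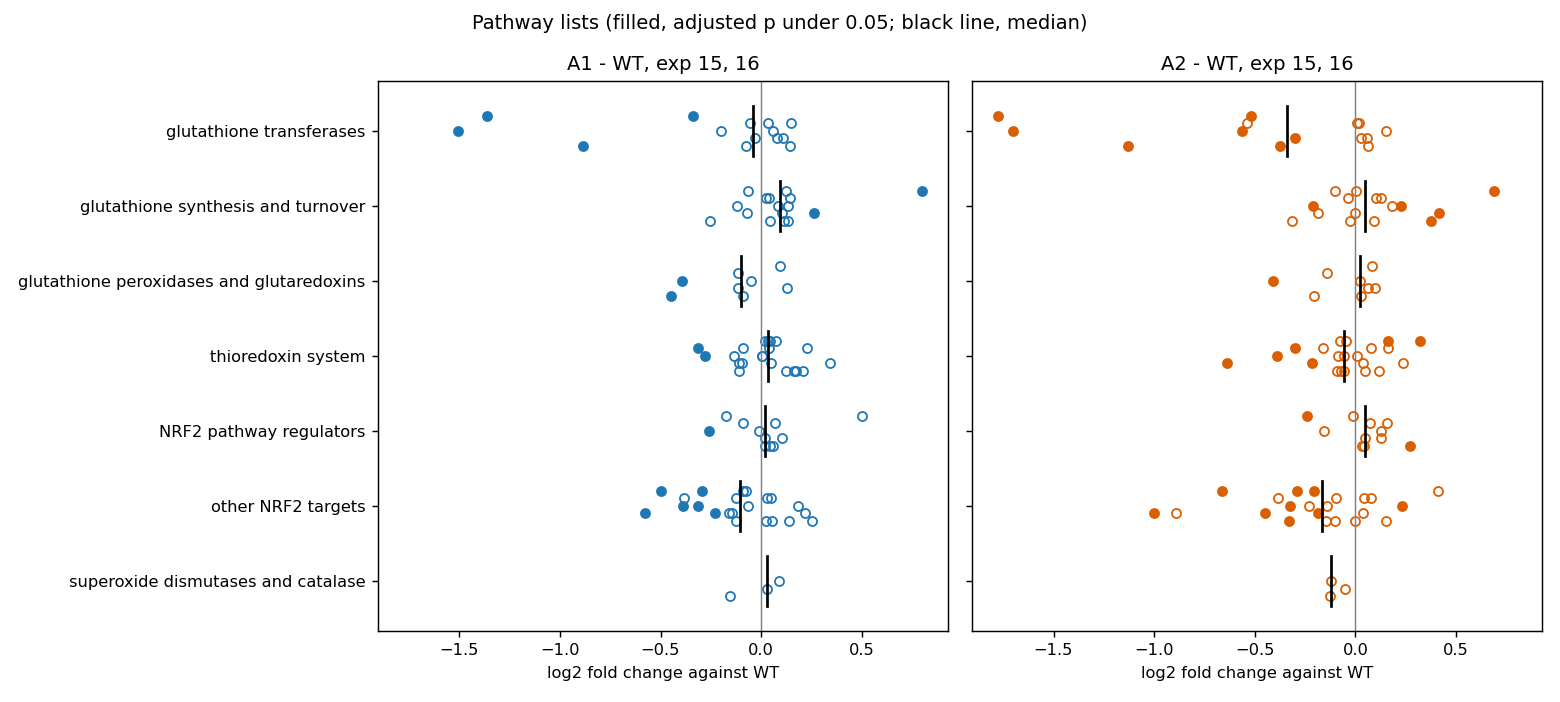
Log2 fold change against WT (x axis) of the counted genes in 7 pathway lists, for clone A1 and clone A2 in experiments 15 and 16; filled points have an adjusted p under 0.05 and black lines are medians. Filled points of the glutathione transferases, 4 in clone A1 and 7 in clone A2, all lie below 0, and the outlying point of the synthesis list above 0 is SLC7A11, at 0.80 and 0.69.

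Among 16 counted genes of glutathione synthesis and turnover, 2 were higher and 0 lower in clone A1, and 4 were higher and 1 lower in clone A2 (12.5% and 31.2%, beside 13.2% and 21.2% of all genes). With the replicate block these were 3 higher and 0 lower and 4 higher and 2 lower. SLC7A11, the cystine importer that supplies cysteine for glutathione, rose most. Its values in the order of experiments 10, 11, 15 and 16 were 11.7, 10.02, 12.5 and 15.7 CPM in WT and 10.7, 10.2, 24.5 and 24.7 CPM in clone A1, with 21.7 and 23.99 CPM in clone A2 of experiments 15 and 16. Every KO library of experiments 15 and 16 lay above every other library. In WT alone SLC7A11 was also called higher in experiments 15 and 16 than in experiments 10 and 11. It rose by 0.80 (SE 0.10, adjusted p = 1.24e-04) in clone A1 and 0.69 (SE 0.10, adjusted p = 1.81e-04) in clone A2, and its clone A1 effect changed between the pairs by 0.86 (95% interval 0.51 to 1.22, adjusted p = 0.0133). The last call was lost in 5 of the 8 fits that left out 1 library, namely each clone A1 library (0.82 to 0.89, adjusted p = 0.0575 to 0.0762) and WT of experiment 15 (0.71, adjusted p = 0.0664). ABCC1, which exports glutathione conjugates, was 0.26 (adjusted p = 0.0128) in clone A1 and 0.42 (adjusted p = 2.33e-04) in clone A2, beside regional medians of 0.16 and 0.23. It too was called higher in WT between the experiment pairs. The ABCC1 call in clone A1 was lost without clone A1 of experiment 16 (0.24, adjusted p = 0.0547) or WT of experiment 15 (0.22, adjusted p = 0.148). SLC3A2, the partner chain of SLC7A11, was 0.38 (SE 0.058, adjusted p = 2.88e-04) in clone A2.

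The thioredoxin list of 21 genes held 0 higher and 2 lower in clone A1 (PRDX2 and PRDX6) and 2 higher and 4 lower in clone A2 (9.52% and 28.6%, beside 13.2% and 21.2% of all genes). With the replicate block clone A1 had 5 higher (PRDX4, TXNIP, MSRB2, TXNRD2 and TXN) and 3 lower, so the balance of direction turned, and clone A2 had 4 higher and 4 lower. SESN2, a sestrin, was 0.32 (SE 0.063, adjusted p = 0.00181) in clone A2, at 86.9 and 88.9 CPM against 71.03 and 69.3 in WT. Of 8 glutathione peroxidases and glutaredoxins, 2 were lower in clone A1 (GLRX2 and GPX4) and 1 in clone A2 (GPX4), with 0 higher (25.0% and 12.5%, beside the same 13.2% and 21.2%), and the block added 1 higher in clone A1 (GLRX3). The 3 counted superoxide dismutases and catalase gave 0 calls in either clone, and with the block SOD1 was lower in both (-0.15, adjusted p = 0.0152, and -0.13, adjusted p = 0.0313). Of 11 regulators of NRF2, KEAP1 alone was lower in clone A1, and in clone A2 1 was higher (MAFG) and 1 lower (BTRC), which is 9.09% and 18.2% beside 13.2% and 21.2%. With the block clone A1 also had BTRC lower (adjusted p = 0.0243) and MAFF higher (0.51, adjusted p = 0.0262), and clone A2 had 3 higher and 2 lower. BTRC lies at -2.81 Mb from GSTO1 on chromosome 10, and without the block it was -0.18 in clone A1 and -0.24 in clone A2. The medians from 5 Mb below GSTO1 up to the gene were -0.25 and -0.30.

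Other NRF2 targets, 22 counted genes, had 0 higher and 6 lower in clone A1 and 1 higher and 8 lower in clone A2 (27.3% and 40.9%, beside 13.2% and 21.2% of all genes). With the block these were 1 higher and 7 lower and 2 higher and 12 lower. HMOX1, haem oxygenase 1, stood at 11.7 and 11.5 CPM in WT, 9.23 and 6.33 in clone A1 and 5.65 and 5.97 in clone A2 of experiments 15 and 16. It fell by 0.58 (adjusted p = 0.0156) in clone A1, a call lost without clone A1 of experiment 16 (-0.33, adjusted p = 0.141) and with 10 libraries in 1 fit (-0.58, adjusted p = 0.0533). In clone A2 it fell by 1.00 on the log2 scale (adjusted p = 1.84e-04), beside a median of -0.52 over the genes within 10 Mb on chromosome 22. Genes of the lists outside the rule for named genes, such as GLRX2, GPX4, PRDX2, MAFG, BTRC and SOD1, were named above after their values were seen.

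Between the clones, 2 of the 95 genes were higher and 8 lower in clone A2 (10.5%, beside 6.16% of all genes). SESN2 (0.28, adjusted p = 0.0132) and SLC3A2 (0.26, adjusted p = 0.0117) were the higher ones. TXN2, mitochondrial thioredoxin, was -0.54 (SE 0.069, adjusted p = 1.24e-04), with 44.6 and 41.6 CPM in clone A2 against 64.9 and 60.5 in clone A1 and 68.9 and 65.01 in WT. TXNRD2, its reductase, was -0.39 (adjusted p = 0.0366) and the transferase GSTT2B, which shares reads with the near-identical GSTT2, was -0.62 (adjusted p = 0.00338). All 3 lie on chromosome 22, where the genes within 10 Mb of them had medians of -0.51, -0.49 and -0.49. The aldo-keto reductase AKR1C3, at 23 to 61 counts and with close relatives, was -1.11 (adjusted p = 0.0423). In fits that left out 1 library, adjusted p reached 0.0804 for SLC3A2, 0.0917 for SESN2, 0.0581 for GSTT2B, 0.282 for TXNRD2 and 0.291 for AKR1C3, and the call of TXN2 held in each. With 10 libraries in 1 fit TXNRD2 (0.055), SESN2 (0.0821) and AKR1C3 (0.107) no longer passed, nor did AKR1C3 with DESeq2 (0.0906). The counts of 2 and 8 became 7 and 15 with the replicate block, and 1 and 3 with 10 libraries in 1 fit. The 2 became 1 without clone A1 of experiment 16 or clone A2 of experiment 15, and the 8 became 2 without clone A1 of experiment 15, 5 without clone A2 of experiment 15 and 4 without clone A2 of experiment 16.

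Between WT of the 2 experiment pairs, 11 of the 95 genes were higher and 4 lower in experiments 15 and 16, where no genotype differs (15.8%, near the 14.6% of all genes). MGST2 (0.62, adjusted p = 0.00148), UGDH (0.58, adjusted p = 0.00294), TXNRD3 (0.51, adjusted p = 0.0150) and GLO1 (0.38, adjusted p = 0.00945) were highest. BLVRB (-0.41), KEAP1 (-0.30), PGD (-0.23) and TKT (-0.21) were the 4 lower ones, with adjusted p of 0.0408, 0.0463, 0.0260 and 0.0372. The counts fell to 4 higher and 0 lower without WT of experiment 15 and to 2 higher and 0 lower without WT of experiment 16, while without WT of experiment 10 the lower genes became 12. The calls of MGST2 and UGDH held without each WT library in turn. Without WT of experiment 11, BLVRB (-0.15, adjusted p = 0.417), TXNRD3 (0.31, adjusted p = 0.108), PGD (-0.20, adjusted p = 0.0552) and TKT (-0.19, adjusted p = 0.0652) lost theirs. TXNRD3 also lost it without WT of experiment 15 (0.48, adjusted p = 0.0801) or 16 (0.53, adjusted p = 0.0688), and GLO1 without WT of experiment 16 (0.36, adjusted p = 0.0789). DESeq2 called 8 of the 95 lower. MGST2 and UGDH lie in regions with medians of 0.37 and 0.37. Mitochondrial genes took 7.79% to 8.48% of the counts in experiments 10 and 11 and 9.05% to 13.9% in experiments 15 and 16, highest in clone A1 (10.7% to 13.9%), and their part in these results was not tested.

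Over all counted genes, the 5 whose log2 CPM followed GSTO1 most closely across the 10 libraries were RPL4 (Pearson r = 0.993), GRIA3 (0.988), DEGS1 (0.987), GABRQ (0.987) and COA6 (0.986). The libraries share experiment pairs and clones, so these values describe likeness of pattern and carry no test. None of the 5 lies on chromosome 10. RPL4, a protein of the large ribosomal subunit, ran from 3424 CPM in WT of experiment 10 to 1823 CPM in clone A2 of experiment 16. GRIA3, a glutamate receptor subunit, ran from 10.7 CPM in WT of experiment 10 to 1.13 CPM in clone A2 of experiment 16. None of the other 9 enzymes was among the 5.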

How the data were processed

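Stranded mRNA libraries (TruSeq) of 10 spheroid cultures were sequenced. The authors mapped the reads with HISAT2 to GRCh38 and dropped every gene with a 0 in any library. What they deposited is a table of raw counts by NCBI identifier. StringTie is also named in the submitters' processing notes, and the counting program is not given in the sources used here. Symbols came from the NCBI gene table (13885 of 13920 genes), and lengths from GENCODE exons merged by symbol. For RNA extraction the labels and the study's methods name different kits.

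Counts were tested in R 4.3.3 with edgeR 4.0.16 (TMM, robust quasi-likelihood test, no further filter), with Benjamini-Hochberg adjustment over the whole table and a threshold of 0.05. Experiments 15 and 16 (6 libraries, 3 means) and experiments 10 and 11 (4 libraries) were fitted apart, while the change of the clone A1 effect and the WT comparison used 8 libraries and 4 means. Alternatives were DESeq2 1.42.0, RLE factors, expression filters, 10 libraries in 1 fit, each library left out, and a replicate block. Where a library was left out, the lone library of its group was assumed to vary like the libraries of the other groups in the fit. Beside a member stands the median of the genes within 10 Mb. On simulated data with 200 changed among 13920 genes, edgeR found 92 of 100 with a log2 fold of 1 and 76 of 100 with 0.5 for clone A1 in experiments 15 and 16, with 15 false calls. For a log2 fold of 0.5 it found 67 of 100 in experiments 10 and 11 and 32 of 100 for the change of the clone A1 effect.

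Because groups share experiment numbers, pairing was checked. Same-experiment WT and clone A1 libraries correlated at 0.468 to 0.526 once the group mean was removed, but those of the other experiment in the same pair did so at 0.399 to 0.461. Centred within the pair, same-experiment libraries correlated at 0.0844 in experiments 10 and 11 and at 0.103 to 0.151 in experiments 15 and 16. The labels give the shared experiment number, and paired fits are given where they change a call of a member or a count of a list. Chi-square per degree of freedom between libraries was at least 6.74, so none agreed within counting noise. Named genes were the members, SAMHD1, GSTO2, NFE2L2, KEAP1, up to 4 listed pathway genes per direction and comparison that passed, by size, and the 5 nearest to GSTO1 in pattern. The members and lists were chosen with earlier results of these data known.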

Additional observations from a re-analysis of the deposited data

Results flagged for a closer look

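In 11 tests of the difference between 2 effects among the named genes, the difference itself passed. Apart from SAMHD1, these genes were named because they passed a comparison, these ones included, so the count is no further support. Of all genes, 6.16% passed between the clones and 1.91% for the change of the clone A1 effect. SAMHD1 fell further in clone A1 of experiments 15 and 16 than of experiments 10 and 11 (-1.81 on the log2 scale) and was higher in clone A2 than in clone A1 (1.79). The clone A1 effects on SLC7A11 (0.86) and MGST1 (-1.39) also changed between the experiment pairs. Between the clones, in experiments 15 and 16, clone A2 differed from clone A1 in SLC3A2 (0.26), SESN2 (0.28), AKR1C3 (-1.11), GSTT2B (-0.62), TXN2 (-0.54), TXNRD2 (-0.39) and PGD (-0.20). In groups of 4 libraries, NFE2L2 in WT had its value of experiment 10 (50.4 CPM) apart from 45.1 to 46.0 CPM in the other 3, a gap of 0.831 of the whole range. Chance gives such a gap in about 1 in 20 groups, and more than 1 group was looked at. The 4 WT libraries also span both experiment pairs, so nothing is read from the gap.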

How the results depend on the processing

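With 2 libraries a group, changes under a log2 fold of about 0.5 are often missed, and NQO1 and GSTM2 are limited by their counts. Of 1089 values recomputed for named genes and lists, 935 kept their direction and side of the threshold, and where others moved the cause was not tested. With a replicate block the genes that passed were 3237 for clone A1 and 4511 for clone A2 against WT and 1947 between the clones in experiments 15 and 16, 229 in experiments 10 and 11, and 1081 for the change of the clone A1 effect; the tested members that passed were 2 and 1 in the first 2. DESeq2 gave 23 genes in experiments 10 and 11 and 409 for the change of effect, and 10 libraries in 1 fit gave 27 in experiments 10 and 11 and 1147 for clone A1 in experiments 15 and 16.

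Leaving out 1 library gave 920 to 1281 genes (clone A1, experiments 15 and 16), 1768 to 2144 (clone A2), 497 to 798 (between clones), 19 to 3144 (experiments 10 and 11), 70 to 1163 (change of effect) and 612 to 3713 (WT between pairs), and 0 to 1 tested members (clone A1 in either pair, between clones, change of effect) and 0 to 3 (WT between pairs). It turned the sign in experiments 10 and 11 of GCLC (-0.03 to 0.0632), GSTK1 (-0.165 to 0.0517), GSTO1 (-0.0233 to 0.0528), GSTO2 (-0.468 to 0.11), KEAP1 (-0.307 to 0.0531) and MGST3 (-0.021 to 0.174), in clone A2 of GSTK1 (-0.044 to 0.1), NFE2L2 (-0.0703 to 0.148), NQO1 (-0.0232 to 0.0189) and TXN (-0.00991 to 0.103), and of TXNRD1 in clone A1 (-0.0627 to 0.0712) and in WT between pairs (-0.0743 to 0.0284). None of these passed in the reported fit. NQO1 in clone A2 also turned with DESeq2 (-0.000746), RLE factors (-0.000571) and the replicate block (-0.000585). Subtracting the regional median turned GSTK1 (-0.083 in clone A1, -0.18 in clone A2), TXNRD1 (-0.00543 in clone A1), TXN (-0.00878) and NQO1 (-0.0262) in clone A2, and GSTO1 in WT between pairs (0.0091).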
